A study of Sus scrofa with 6 samples.

Results

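Myosin light chains are the small subunits that wrap around the neck of the myosin heavy chain. Each heavy chain carries an essential light chain, which stiffens the lever arm, and a regulatory light chain, whose phosphorylation tunes contraction. In skeletal muscle the forms differ with the fibre type, so that slow fibres carry MYL2, MYL3 and MYL6B and fast fibres carry MYLPF and MYL1, while MYL6 and MYL9 are the forms of smooth muscle and non-muscle cells and MYL4 is a form of embryonic muscle and the atrium.

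The genes described here are the 8 myosin light chain genes MYL1, MYL2, MYL3, MYL4, MYL6, MYL6B, MYL9 and MYLPF, chosen by name. Of these, 7 had a gene ID of their own, among 25973 gene IDs with an mRNA transcript in the files, and they held 27 of 72511 transcripts. MYLPF is listed under the symbol MYL11 in the names used here. MYL6B had no separate gene ID, and its transcripts lay under the ID of MYL6, next to it on chromosome 5.

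Total RNA of the longissimus thoracis (LT), a muscle of the back, and of the semitendinosus (ST), a muscle of the hind leg, was sequenced after removal of rRNA from 3 untreated Min pigs, a Chinese local breed, at the age of 210 days. This gave 6 libraries, 3 from LT and 3 from ST, and the labels give the genotype as WT for all of them. Both muscles came from each pig. Libraries with the same replicate number were taken to share a pig, a match that neither the labels nor the study's methods state. The sex of the pigs and the site sampled within ST, a muscle that in pigs has a dark deep portion and a pale superficial one, are not given in the sources used here.

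The values are FPKM, the fragments on a transcript per base of its length and relative to the mapped fragments of the library, summed over the transcripts of a gene. The depth implied by the lowest values was between 38400000 and 51800000 fragments per library, an estimate from the steps between FPKM values. The study reports a higher average number of clean read pairs for each muscle, so fragment numbers given here are rough. By the same estimate, MYL1, MYL2, MYL3 and MYLPF each rested on at least 11390 fragments in every library, MYL9 on 138 to 291, and MYL4 on 7.38 at most. Counting error is thus largest for MYL4 and MYL9.

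The 6 libraries carried the markers of skeletal muscle fibres. ACTA1, the skeletal alpha-actin, stood at 2429 ± 607 FPKM in LT and 2361 ± 568 in ST (SD, n = 3), and CKM, the muscle creatine kinase, at 2068 ± 413 and 2561 ± 167. ST replicate 2 stood apart from the other ST libraries. Correlations were taken on log2 values over the 11270 genes with a mean FPKM of at least 1. ST replicate 2 correlated at r = 0.939 with LT replicate 2, taken as its own pig, and at 0.926 and 0.921 with LT replicates 1 and 3. With ST replicates 1 and 3 it correlated at 0.925 and 0.913, while these 2 correlated at 0.958 with each other. The HOX genes, which keep the position of a muscle along the body axis, nevertheless placed it with ST. HOXA10 had 0, 0.0900 and 0.836 FPKM in LT libraries and 6.55, 13.7 and 6.54 in ST libraries. HOXC9 had 7.73, 8.20 and 8.31 FPKM in LT libraries and 1.43, 1.01 and 1.30 in ST libraries. Both genes were picked for this check with their values known. The results for the members are given with and without this library. It was singled out with the values of these data known, so the adjusted p-values without it are descriptive.

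Of the regulatory chains of skeletal muscle, the slow form had the higher mean in ST and the fast form the higher mean in LT, and neither passed the adjusted threshold with all 6 libraries. MYL2, the slow regulatory light chain (ENSSSCG00000039710, chr14:32196883-32213760, minus strand, Sscrofa11.1), had 2348, 1646 and 1720 FPKM in LT replicates 1, 2 and 3 and 15446, 1974 and 16708 FPKM in ST replicates 1, 2 and 3. ST replicates 1 and 3 stood far above every LT library, and ST replicate 2 lay within the LT range, so the groups overlapped. The mean was 1905 ± 386 FPKM in LT and 11376 ± 8167 in ST (SD, n = 3), with a log2 fold change of 2.09 (SE 0.79, limma adjusted p = 0.206). Without ST replicate 2 it was 3.09 (SE 0.27, limma adjusted p = 0.00281). It was 1.61 without ST replicate 1 and 1.55 without ST replicate 3 (limma adjusted p = 0.433 and 0.432).

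MYLPF, the fast regulatory light chain (ENSSSCG00000007799, chr3:17938129-18017343, minus strand), had 22068, 22740 and 17157 FPKM in LT and 5220, 13027 and 1625 FPKM in ST. Every ST library lay below every LT library, with ST replicate 2 nearest to LT. The means were 20655 ± 3048 FPKM in LT and 6624 ± 5829 in ST (SD, n = 3), a ratio of 3.12 in favour of LT, and the log2 fold change was -2.09 (SE 0.74, limma adjusted p = 0.182). Without ST replicate 2 it was -2.81 (SE 0.49, limma adjusted p = 0.0229), and without ST replicate 3 it was -1.31 (limma adjusted p = 0.385).

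**Figure D1:**
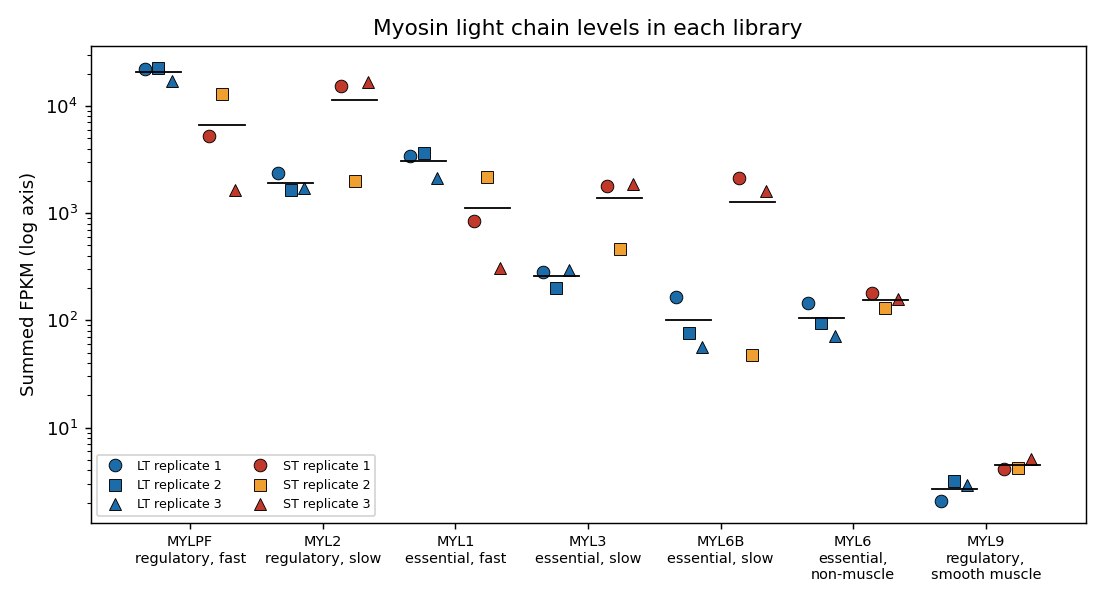
Summed FPKM on a log axis for 7 light chain genes in each of the 6 libraries, with LT in blue, ST replicates 1 and 3 in red, ST replicate 2 in orange, the marker shape giving the pig and the line giving the mean of a muscle. MYL6B and MYL6 were separated by position, MYL4 is not drawn because it was listed at 0 in 4 libraries, and the orange square lies nearer to the blue points than the red points do for MYL2, MYL3, MYL1 and MYLPF.

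The means of the essential chains were split in the same way, fast form higher in LT and slow form higher in ST. MYL1, the fast essential light chain (ENSSSCG00000016157, chr15:113034279-113063231, minus strand), had 3402, 3614 and 2130 FPKM in LT and 837, 2185 and 308 FPKM in ST. ST replicates 1 and 3 were below all LT libraries, and ST replicate 2 was just above the lowest LT library, so the groups overlapped. The log2 fold change was -1.85 (SE 0.65, limma adjusted p = 0.183), -2.55 without ST replicate 2 (SE 0.45, limma adjusted p = 0.0238) and -1.13 without ST replicate 3 (limma adjusted p = 0.375).

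MYL3, the slow essential light chain that is also the ventricular form (ENSSSCG00000011325, chr13:29699304-29735586, minus strand), had 283, 200 and 293 FPKM in LT and 1789, 465 and 1884 FPKM in ST. All ST libraries were above all LT libraries, although ST replicate 2 stayed closer to LT than to the other ST libraries. The means were 259 ± 51.1 FPKM in LT and 1379 ± 793 in ST (SD, n = 3), a 5.33-fold ratio. MYL3 had the lowest adjusted p of the members, with a log2 fold change of 2.19 (SE 0.53, limma adjusted p = 0.0879). It was the only member called with the pig as a block, where the limma adjusted p was 0.0269 and 4.26% of all genes were called, and it was also called without ST replicate 2, where the log2 fold change was 2.85 (SE 0.23, limma adjusted p = 0.00252).

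The gene ID of MYL6 (ENSSSCG00000039506, chr5:21486312-21563425, plus strand) had 312, 172 and 128 FPKM in LT and 2291, 179 and 1768 FPKM in ST, with ST replicate 2 inside the LT range. Its log2 fold change was 2.24 (SE 0.89, limma adjusted p = 0.224), 3.40 without ST replicate 2 (SE 0.37, limma adjusted p = 0.00554) and 1.56 without ST replicate 1 (limma adjusted p = 0.468). Its 7 transcripts were separated by the RefSeq positions of the same assembly, a split added once the data had been seen. MYL6B lies at chr5:21554351-21558995, and 3 transcripts fell within it. MYL6 begins downstream of it and ends at 21562418, and 1 transcript fell within it. The other 3 extended upstream of MYL6, to the start of MYL6B or beyond it, and were counted with MYL6.

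MYL6B, an essential light chain found in slow fibres, then had 166, 76.8 and 56.2 FPKM in LT and 2112, 47.5 and 1610 FPKM in ST. ST replicates 1 and 3 were far above LT, whereas ST replicate 2 was below every LT library. The log2 fold change was 2.60 (SE 1.30, limma adjusted p = 0.322), the largest SE among the members, and 4.36 without ST replicate 2 (SE 0.43, limma adjusted p = 0.00400). It was 1.63 without ST replicate 1 and 1.82 without ST replicate 3 (limma adjusted p = 0.610 and 0.591). In ST replicates 1 and 3 the level was 18.7 times the LT mean.

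The remaining transcripts of that ID, taken as MYL6, the essential light chain of smooth muscle and non-muscle cells, had 146, 94.9 and 71.8 FPKM in LT and 179, 131 and 158 FPKM in ST. The highest LT library lay between the ST libraries, so the groups overlapped. The transcript within MYL6 had 84.5, 53.0 and 41.2 FPKM in LT and 104, 65.8 and 79.8 in ST, with overlap. The 3 that extended upstream had 61.8, 41.9 and 30.6 FPKM in LT and 74.3, 65.5 and 78.6 in ST, without overlap. For the 4 together the log2 fold change was 0.63, with a 95% confidence interval from -0.02 to 1.29 (limma adjusted p = 0.277), and 0.75 without ST replicate 2 (limma adjusted p = 0.186). The higher values of the shared gene ID in ST replicates 1 and 3 therefore lay mostly in the transcripts of MYL6B, which made up 92.2 and 91.0% of its FPKM there, against 53.2, 44.7 and 43.9% in LT and 26.6% in ST replicate 2.

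**Figure D2:**
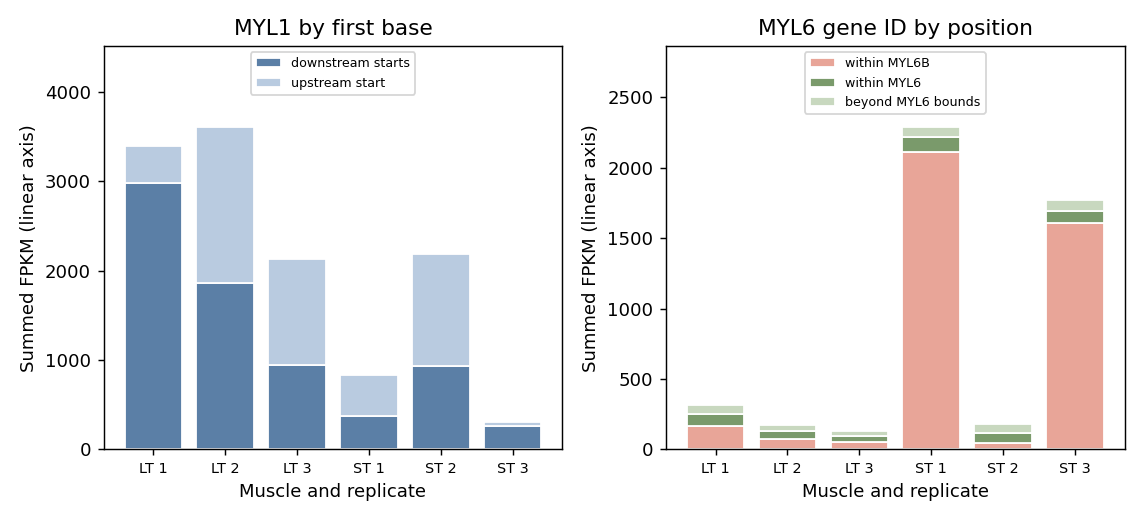
Summed FPKM on a linear axis in each library for the transcripts of MYL1, stacked by their first base (left), and for the transcripts of the MYL6 gene ID, stacked by RefSeq position (right). MYL6B transcripts fill most of the bars of ST replicates 1 and 3, and the MYL1 bars of the same libraries are the lowest of the 6.

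MYL9, the regulatory light chain of smooth muscle and non-muscle cells (ENSSSCG00000036402, chr17:39788199-39795296, plus strand), was low in both muscles. It had 2.07, 3.15 and 2.89 FPKM in LT and 4.10, 4.21 and 5.14 FPKM in ST. The groups did not overlap, and ST replicate 2 lay with the other ST libraries. The log2 fold change was 0.72 (SE 0.22, limma adjusted p = 0.138), and 0.76 without ST replicate 2 (limma adjusted p = 0.119). MYL4, the embryonic and atrial essential light chain (ENSSSCG00000017307, chr12:16775471-16792213, minus strand), was listed at 0 in the 3 LT libraries and in ST replicate 2, and at 0.175 and 0.145 FPKM in ST replicates 1 and 3, or an estimated 7.38 and 6.97 fragments. No fold is given for it.

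In the main limma fit over 19679 genes, which had no term for the pig, a call asked for an adjusted p below 0.05 together with a log2 difference beyond 1 in size. No member met it, while 0.579% of all genes did, 0.412% higher and 0.168% lower in ST. At an unadjusted p under 0.05 from limma with the same fold change, 5 of 7 gene IDs passed, MYL2, MYL3 and the MYL6 ID higher in ST and MYL1 and MYLPF lower, against 7.11% of all genes, 4.63% higher and 2.47% lower. The number passing was 2 with no filter on FPKM, where 1285 of 23149 genes passed. It was 1 without LT replicate 2 (1224 of 19615 genes) and 1 without ST replicate 3 (1283 of 19551 genes). It was 6 without ST replicate 2, where the number over all genes rose too, to 1970 of 19539. The values of LT and ST did not overlap for MYL3, MYL9 and MYLPF, against 24.8% of all genes tested. Each of those had an exact permutation p of 0.1 (two-sided), the smallest that 3 against 3 libraries can give, and MYL1, MYL2 and the MYL6 ID had 0.2. The permutation test did not pair the libraries by pig either. With the pig as a block in limma, 1 of 7 gene IDs was called (MYL3), against 4.26% of all genes.

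Without ST replicate 2, these 5 gene IDs were called, 3 higher and 2 lower in ST, where 5.15% of genes were called, 3.34% higher and 1.81% lower. Over the 6 fits that each left out 1 library, the log2 fold change ranged from 1.55 to 3.09 for MYL2, from 1.84 to 2.85 for MYL3 and from 0.55 to 0.84 for MYL9. Without both libraries of pig 2, MYL2, MYL3 and the MYL6 ID were called (limma adjusted p = 0.0199, 0.0167 and 0.0338), where 1.28% of genes were, and MYL1 and MYLPF had limma adjusted p = 0.0911 and 0.0863. Over 17 alternatives (18 for the MYL6 ID) the limma adjusted p ranged from 0.0238 to 0.403 for MYL1, from 0.00281 to 0.433 for MYL2, from 0.00252 to 0.274 for MYL3, from 0.00554 to 0.468 for the MYL6 ID, from 0.0723 to 0.340 for MYL9 and from 0.0229 to 0.431 for MYLPF.

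**Figure D3:**
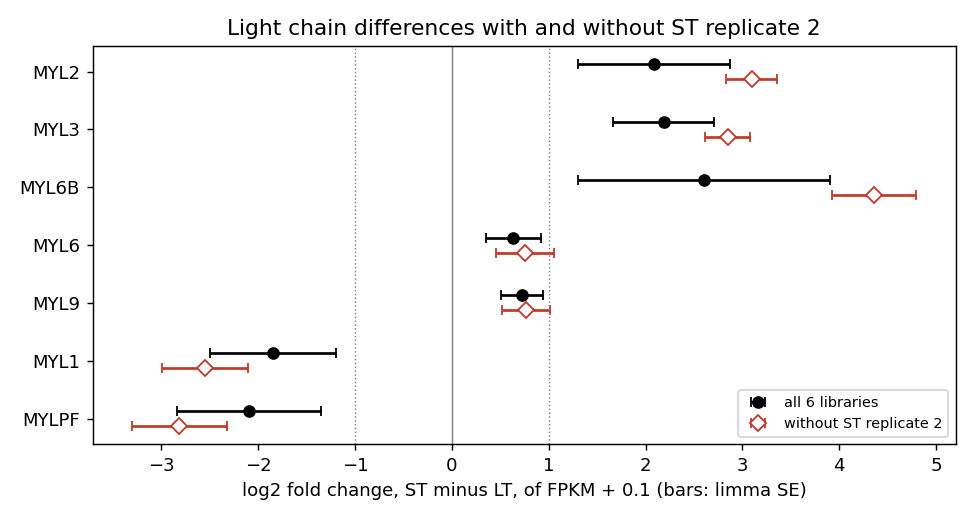
Log2 fold change of ST against LT for 7 light chain genes, with the limma standard error, from all 6 libraries (filled circles) and without ST replicate 2 (open diamonds). Dotted lines mark the fold needed for a call, and MYL2, MYL3, MYL6B, MYL1 and MYLPF lie farther from 0 without that library while MYL6 and MYL9 stay inside the lines.

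Within pigs, MYL1 and MYLPF were lower in ST in all 3 pigs, and MYL2, MYL3, the MYL6 ID and MYL9 were higher in ST in all 3. The size differed between pigs. The log2 difference of MYL2 was 2.72 in pig 1, 0.26 in pig 2 and 3.28 in pig 3. That of MYLPF was -2.08, -0.80 and -3.40, and that of MYL3 was 2.66, 1.22 and 2.68. Pig 2 had the smallest difference for each of these, and MYL6B was lower in its ST than in its LT, with a log2 difference of -0.69 against 3.67 and 4.84 in the other pigs.

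The share of the slow form summarizes each pair. MYL2 made up 9.62, 6.75 and 9.11% of the FPKM of MYL2 and MYLPF together in LT, and 74.7, 13.2 and 91.1% in ST. MYL3 made up 7.68, 5.25 and 12.1% of MYL1 and MYL3 together in LT, and 68.1, 17.6 and 85.9% in ST. Thus the fast forms led in the LT libraries and in ST replicate 2, and the slow forms led in ST replicates 1 and 3. With MYL6B added to the slow essential chains, their share came to 11.7, 7.12 and 14.1% in LT and 82.3, 19.0 and 91.9% in ST. These shares are values over the members and were not tested.

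**Figure D4:**
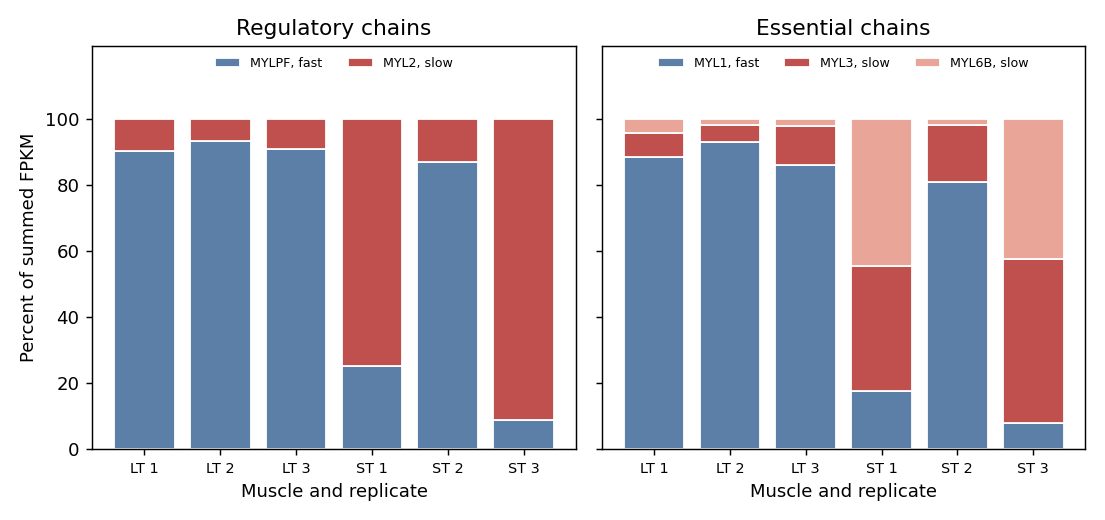
Percent of summed FPKM taken by each form among the regulatory chains MYLPF and MYL2 (left) and the essential chains MYL1, MYL3 and MYL6B (right) in each library. Slow forms (red and pink) take most of ST replicates 1 and 3, whereas fast forms (blue) take most of the LT libraries and of ST replicate 2.

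The members together took 7.03, 7.29 and 5.67% of all FPKM in LT and 6.36, 4.74 and 5.58% in ST. Within a fibre type, the regulatory form exceeded the essential one in every library. MYLPF was 6.49, 6.29 and 8.06 times MYL1 in LT and 6.23, 5.96 and 5.27 times in ST. MYL2 was 8.29, 8.23 and 5.87 times MYL3 in LT and 8.63, 4.24 and 8.87 times in ST. Over the 5 skeletal forms the FPKM ratio of regulatory to essential chains came to 6.34, 6.27 and 7.61 for LT and 4.36, 5.56 and 4.82 for ST, with no overlap. The listed transcripts of MYL1 are long, with 3101 and 2910 bases for the 2 most abundant, of which either led depending on the library, against 664 for the most abundant of MYLPF, and on fragments without the length the same ratio came to 1.54, 1.44 and 2.07 for LT and 1.78, 1.51 and 2.03 for ST, with overlap.

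Among the 19679 genes tested, the 2 regulatory chains of skeletal muscle ranked near the top, while MYL9 stood between places 5811 and 8493 and MYL4 at place 17316 or lower down. MYLPF held place 1, 1 and 2 in LT and place 8, 3 and 26 in ST. MYL2 held place 20, 30 and 26 in LT and place 2, 20 and 2 in ST. In LT the order of the means was MYLPF, MYL1, MYL2, MYL3, the MYL6 ID, MYL9 and MYL4, and the neighbours MYL1 and MYL2 overlapped in range, as did MYL3 and the MYL6 ID. In ST the order of the means was MYL2, MYLPF, the MYL6 ID, MYL3, MYL1, MYL9 and MYL4, and the ranges of the first 5 overlapped from each to the next. The order in ST replicate 2 was that of LT replicates 2 and 3. In ST replicate 3, MYL2 was followed by MYL3, the MYL6 ID, MYLPF and MYL1.

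MYL1 is known to have an upstream promoter and an internal one, which give a long and a short protein. Its 7 listed transcripts began at several bases, and the farthest upstream start lay 9572 bases from that of ENSSSCT00000017591. Transcripts from the upstream starts made up 12.3, 48.5 and 55.4% of MYL1 FPKM in LT and 55.7, 57.1 and 13.8% in ST. The share was low in LT replicate 1 and in ST replicate 3 and close to even in the other libraries, so it did not follow the muscle. The transcript ENSSSCT00000017591, from the downstream start, had 2467, 1315 and 717 FPKM in LT and 248, 676 and 229 in ST. The transcript ENSSSCT00000039369, from the upstream start, had 358, 1752 and 1179 FPKM in LT and 336, 1246 and 33.6 in ST. Neither was called (limma adjusted p = 0.387 and 0.702).

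Of the 27 member transcripts, 26 passed the filter and 0 were called in the limma fit over 52102 transcripts, which called 0.146% of them, and 9 had an unadjusted p under 0.05 with the same fold change, against 6.95%. Without ST replicate 2, 4 were called, against 0.507%. These were both transcripts of MYL2, the main transcript of MYL3 and the main transcript of MYL6B. MYL2 was divided between ENSSSCT00000071844, with 64.6 to 75.4% of its FPKM, and ENSSSCT00000058760, with the rest, in all libraries. ENSSSCT00000012400 held at least 99.1% of MYL3. MYLPF came mostly from ENSSSCT00000008547, with 61.2 to 96.8% of its FPKM, and ENSSSCT00000080946 followed with 2.19 to 27.5%.

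The slow and fast sarcomere genes were read beside the light chains, from lists chosen with earlier results of these data known. Of 9 slow sarcomere genes, 1 was called higher in ST by limma and 0 lower, and 9 were called higher without ST replicate 2. With the pig as a block 6 were called higher, MYBPC1, MYH7B, TNNT1, TPM3, MYOZ2 and ATP2A2. The median log2 fold change of the 9 genes was 1.81, beside 0.13 over all genes tested. Without ST replicate 2 it was 2.57, beside 0.17. TNNC1, the slow troponin C, had 2993, 1868 and 2314 FPKM in LT and 14922, 2463 and 12953 in ST, so that ST replicate 2 fell within the LT range, as for MYL2. That held for 3 of the 9 genes, and ST replicate 2 was above the LT range for the other 6. MYBPC1, the slow myosin-binding protein C, was the gene called, with 608, 435 and 535 FPKM in LT and 2547, 1539 and 2431 in ST (log2 fold change 2.02, limma adjusted p = 0.0399). Leaving out any library other than ST replicate 2 ended that call, with limma adjusted p from 0.125 to 0.192. TPM3, the slow tropomyosin, had a log2 fold change of 1.81 (limma adjusted p = 0.171, and 0.0397 with the pig as a block) and TNNI1, the slow troponin I, one of 1.59 (limma adjusted p = 0.255). These were 2.59 and 2.47 without ST replicate 2. Relative to the LT mean, the median of the 9 genes was 5.83-fold in the mean of ST replicates 1 and 3, and 1.43-fold in ST replicate 2.

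Of 10 fast sarcomere genes, 0 were called by limma, 6 were lower in ST at an unadjusted p under 0.05 with the same fold change, and 8 were called lower without ST replicate 2. Their median log2 fold change was -2.49, and -3.48 without ST replicate 2. TNNC2, the fast troponin C, had 9073, 9188 and 6549 FPKM in LT and 1585, 6139 and 383 in ST, with ST replicate 2 just below LT and ST replicate 3 lowest, as for MYLPF. TNNI2, TNNT3 and TPM1, the fast troponin I, troponin T and tropomyosin, had log2 fold changes of -2.32, -2.93 and -2.62 (limma adjusted p = 0.182, 0.182 and 0.110, the last 0.0476 with the pig as a block). These were -3.28, -4.08 and -3.39 without ST replicate 2, and -1.43, -1.68 and -1.80 without ST replicate 3. ST replicate 2 was below the LT range for 6 of the 10 genes, within it for 3 and above it for 1.

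**Figure D5:**
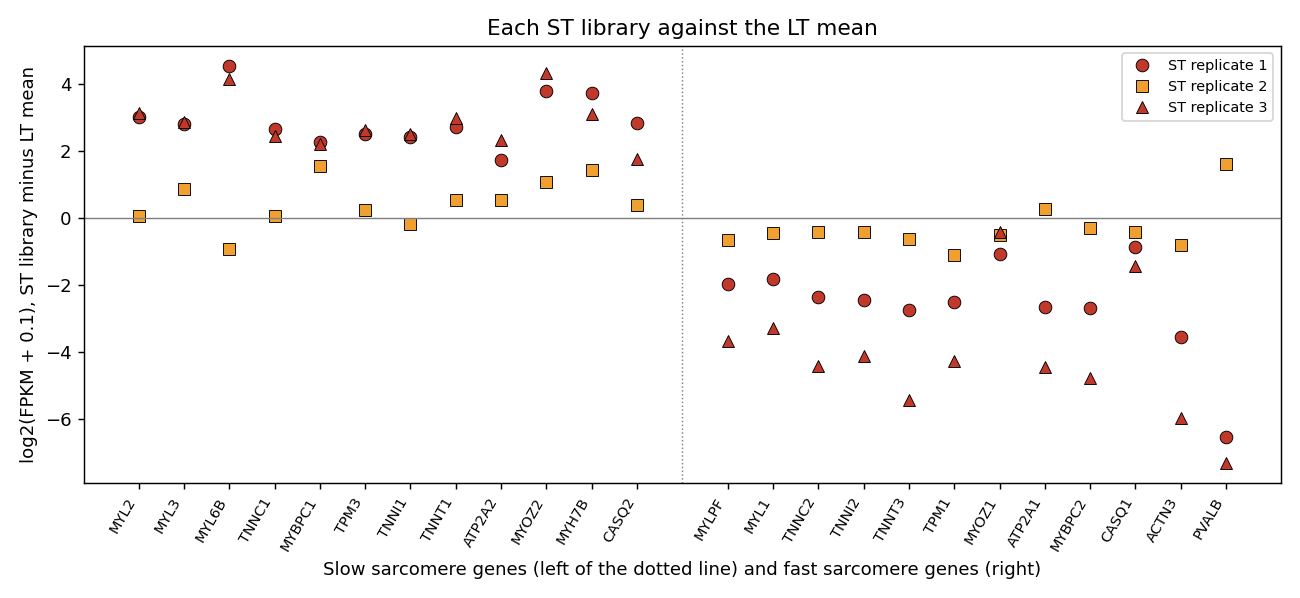
Difference of log2(FPKM + 0.1) between each ST library and the LT mean for the slow light chains and slow sarcomere genes (left of the dotted line) and the fast light chains and fast sarcomere genes (right), with ST replicate 2 as orange squares. For MYL2, MYL3, MYLPF, MYL1 and most of the list genes the orange squares lie between 0 and the red points, for MYL6B the orange square lies below 0, and ST replicate 3 lies lowest for MYLPF, MYL1 and most fast genes.

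The heavy chains that the light chains bind were separated by position where possible. MYH7, the slow heavy chain, had 542, 500 and 654 FPKM in LT and 3327, 846 and 4365 in ST. MYH4, the fastest of the fast heavy chains, had 2824, 4989 and 3464 FPKM in LT and 15.3, 1280 and 4.24 in ST. For MYH7 and MYH4, ST replicate 2 lay between LT and the other ST libraries. MYH2, the heavy chain of the slower fast fibres, had 218, 207 and 176 FPKM in LT and 1260, 513 and 381 in ST. Every ST library was above every LT library for MYH2, and ST replicate 2 lay between the other ST libraries. No transcript fell within MYH1. The 3 fast heavy chains MYH1, MYH2 and MYH4 share 1 gene ID of 8 transcripts, with 6731 ± 983 FPKM in LT and 2584 ± 2892 in ST (SD, n = 3). The other 4 of these transcripts could not be assigned by position. They held 52.2, 33.8 and 39.1% of the FPKM of the ID in LT and 11.7, 69.5 and 11.8% in ST. Most of the fast heavy chain FPKM of ST replicate 2 and of LT replicate 1 was thus not assigned to any of the 3 genes. The values given for MYH2 and MYH4 leave this part out.

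Over all genes with a mean FPKM of at least 1, ST replicates 1 and 3 lay on the same side of all LT libraries for 5566. ST replicate 2 was on that side too for 3328 of them (59.8%) and within the LT range for 1623 (29.2%). MYL3, MYL9 and MYLPF belonged to the first group, and MYL1, MYL2 and the MYL6 ID to the second.

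Of 5 genes of embryonic and atrial sarcomeres, 0 were called by limma, with a median log2 fold change of 0.42. The ID listed as MYH6, the atrial heavy chain, also covers MYH7, whose transcripts by position held 83.4 to 94.4% of its FPKM, so that it mostly measured the slow MYH7. Its log2 fold change was 2.08 (limma adjusted p = 0.106, and 0.0375 with the pig as a block). MYH8, the perinatal heavy chain, had one of -1.92 (limma adjusted p = 0.257), and -3.00 without ST replicate 2 and without pig 2 (limma adjusted p = 0.00585 and 0.0365). Without ST replicate 2 the MYH6 ID was called too, with a log2 fold change of 2.75 (limma adjusted p = 0.00281). MYH3, the embryonic heavy chain, had a log2 fold change of 0.19 (limma adjusted p = 0.823) and ACTC1, the cardiac actin, one of 1.16 (limma adjusted p = 0.466). Among other light chains, MYL12A, a non-muscle regulatory chain, had 103, 65.5 and 207 FPKM in LT and 695, 117 and 342 in ST (log2 fold change 1.44, limma adjusted p = 0.279). MYL10 was listed at 0 in LT and reached 2.42 FPKM in ST replicate 1, and MYL5 stayed at 0.085 FPKM or less and was not tested. The list had 0 calls of 2 genes tested, with a median of 1.87.

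The genes that phosphorylate or dephosphorylate the regulatory chain gave 1 call of 13, with a median log2 fold change of 0.30, and 2 calls higher and 2 lower in ST without ST replicate 2. The call was MYLK4, a myosin light chain kinase, named with its values known, with 0.851, 1.12 and 1.62 FPKM in LT and 4.52, 8.78 and 11.3 in ST (log2 fold change 2.63, limma adjusted p = 0.0382). ST replicate 2 lay between the other ST libraries here. Leaving out any LT library or ST replicate 3 ended the call, with limma adjusted p from 0.0845 to 0.162. MYLK2, the skeletal muscle light chain kinase, was the most abundant kinase, with 389, 333 and 316 FPKM in LT and 83.6, 279 and 132 in ST (log2 fold change -1.25, limma adjusted p = 0.159, and adjusted p = 0.0127 without ST replicate 2). PPP1CB, a catalytic subunit of the myosin phosphatase, had a log2 fold change of 0.30 (limma adjusted p = 0.806).

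Markers of other cell types were read beside MYL9 and MYL6, since fewer cells of a type and less RNA per cell cannot be told apart in bulk muscle. The 10 smooth muscle and pericyte genes had 0 calls and a median log2 fold change of 0.47, and they summed to 213, 184 and 188 FPKM in LT and 357, 272 and 343 in ST. RGS5, a pericyte gene, was the most abundant (log2 fold change 1.21, limma adjusted p = 0.0539, and 0.0215 with the pig as a block, and 0.0127 without ST replicate 2), followed by TAGLN, ACTA2 and CNN1, with 0.43, 0.61 and 0.34 (limma adjusted p = 0.294, 0.155 and 0.525). ACTG2 and MYOCD, smooth muscle genes singled out with their values known, were at 0.441 and 0.139 FPKM or less. Of 4 endothelial genes, PECAM1 and CDH5 were called higher in ST (log2 fold change 1.39 and 1.22, limma adjusted p = 0.0424 and 0.0399), and KDR and TEK had 1.18 and 0.70 (limma adjusted p = 0.196 and 0.191, that of KDR 0.0307 with the pig as a block). Both calls ended when any library other than ST replicate 2 was left out, with limma adjusted p from 0.0809 to 0.178. The endothelial list summed to 71.0, 47.1 and 54.9 FPKM in LT and 164, 113 and 128 in ST, with PECAM1 as the most abundant gene and none at 0. The part of these cells in the values of MYL9 and MYL6 was not tested. The 3 non-muscle heavy chains MYH9, MYH10 and MYH14 had 0 calls and log2 fold changes of 0.66, 0.57 and 0.17 (limma adjusted p = 0.109, 0.346 and 0.764).

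The 5 skeletal muscle fibre genes had 0 calls, and 1 (MYOT, higher in ST) both with the pig as a block and without ST replicate 2, and a median log2 fold change of 0.32. Beside ACTA1 and CKM, TCAP, a titin cap protein, had 792 ± 484 FPKM in LT and 1919 ± 532 in ST, and NEB, the thin filament ruler nebulin, had 929 ± 43.0 and 934 ± 81.0 (SD, n = 3). The 6 fibroblast genes had 0 calls and a median of -0.07, with COL3A1, DCN, COL1A2 and LUM as the most abundant. The 5 adipocyte genes had 0 calls and a median of -0.92, with FABP4, ADIPOQ, PLIN1 and CIDEC as the most abundant. The 4 immune genes CD163, PTPRC, CD68 and CD3E had 0 calls and a median of 0.59.

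Mitochondrial transcripts took 3.31, 2.91 and 4.25% of the fragments in LT and 8.06, 6.15 and 8.48% in ST. With FPKM rescaled to the other transcripts, the median log2 fold change over all genes moved from 0.13 to 0.24, and 0 of the 7 members were called.

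For 4 members, the 5 genes with the most similar pattern over the 6 libraries were taken by Pearson's r of log2(FPKM + 0.1), among 3392 genes with a mean of at least 10 FPKM. The libraries share 2 muscles and 3 pigs, so these values describe the 6 libraries and carry no test. Nearest to MYL2 were MGST3, a glutathione transferase, XLOC_037288, TNNI1, TNNC1 and GUCY2C, with r of 0.996, 0.996, 0.995, 0.995 and 0.992. Nearest to MYLPF were TNNT3, XLOC_099843, ACTN3, the fast alpha-actinin, JPH1, a junctophilin, and TNNC2, all with r of 0.997 or 0.998. Thus troponins of the same fibre type were among the genes nearest to both regulatory chains.

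Nearest to MYL3 were XLOC_027311, the MYH6 ID, ENSSSCG00000001341, LAMP2, a lysosomal membrane protein, and XLOC_109226, with r from 0.994 to 0.996. Nearest to MYL1 were PARK7, ENSSSCG00000032522, XLOC_099843, TNNT3 and MYBPC2, the fast myosin-binding protein C, with r from 0.994 to 0.998. A high r did not mean a large difference. PARK7 had 199, 201 and 191 FPKM in LT and 179, 192 and 162 in ST, a far smaller span than that of MYL1. The 4 unannotated loci among these genes each lay on the strand opposite a sarcomere gene, XLOC_037288 opposite MYL2, XLOC_027311 opposite MYL3, XLOC_099843 opposite MYBPC2 and XLOC_109226 opposite the MYH6 ID.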

How the data were processed

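RNA of 3 LT and 3 ST samples was analysed. Per the labels and the study's methods, the authors mapped filtered reads to Sscrofa11.1, used StringTie for assembly and deposited an FPKM value for each transcript and library. FPKM was summed here per gene ID, and genes above 0.1 FPKM in at least 1 library were compared on log2(FPKM + 0.1) with limma 3.58.1 (variance trend) in R 4.3.3, with Benjamini-Hochberg adjustment over all genes, since the values are not counts. Standard errors are those of limma. The smallest exact two-sided permutation p was 0.1. Depth was estimated from the most frequent low value of FPKM times length, taken as 1 fragment. Only 32.2 to 37.8% of low values were whole multiples of it, within 0.02 fragments, so no count test was run.

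Replicate numbers were taken as pigs, an assumption that the sources used here do not state. Same-numbered libraries had residual correlations of 0.301, 0.276 and 0.303, and the study's methods take both muscles from each pig. The pig as a block was an alternative, as were other pseudocounts, filters and scalings, a fit without the trend, annotated transcripts alone and leaving out each library. Leaving out pig 2 and splitting MYL6 from MYL6B were added after the data were seen.

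The members, the lists and the named genes were chosen with earlier results of these data known. Named were all members, their transcripts of at least 5% of a gene, the 4 most abundant genes of each list and the 5 genes most like 4 members. Of 90 list genes, 80 had an ID, 5 of them by position. Some list genes, and 1 list that rests on them, are not reported here. No sequence file was used. Python 3.11.15, numpy 2.4.6, pandas 2.3.3, scipy 1.17.1 and matplotlib 3.10.9 were used for the rest.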

Additional observations from a re-analysis of the deposited data

Results flagged for a closer look

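Transcripts on the strand opposite a member carried signal that was not part of the members' values. Those opposite MYL2 and MYL3 are the loci XLOC_037288 and XLOC_027311 named above among the genes most similar to these members. Opposite MYL1, 2 transcripts listed as lncRNAs had a mean of 232.3 FPKM over the 6 libraries, 336, 434 and 271 FPKM in LT and 86.7, 242 and 23.9 in ST, which was 7.76 to 12.7% of MYL1 in the same library. Opposite MYL2, 1 transcript had a mean of 134.7 FPKM and 1.80 to 2.35% of MYL2, with 55.1, 36.5 and 40.5 FPKM in LT and 337, 37.3 and 302 in ST. Opposite MYL3, 1 transcript had a mean of 144 FPKM and 15.8 to 20.3% of MYL3. Opposite MYL6, 2 transcripts had a mean of 11.77 FPKM, and opposite MYL9, 1 transcript had a mean of 0.279 FPKM. The libraries were made with a directional kit, and whether the counting used the strand is not given in the sources used here, so reads of a gene and of its opposite partner may not have been told apart.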

How the results depend on the processing

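The number of genes called, 114 with all libraries (81 higher and 33 lower in ST), depended on the setting: 31 with no filter on FPKM, 31 with no variance trend, 62 after quantile normalization, 306 with FPKM rescaled off the mitochondrial chromosome, 838 with the pig as a replicate block and 248 without pig 2. Leaving out 1 library gave from 11 to 1006, the highest without ST replicate 2. Of the calls, 71.1% were higher in ST, against 82.7% off the mitochondrial chromosome (253 and 53) and 53.2% after quantile normalization (33 and 29), where the median log2 fold change was -0.01. For transcripts, with 76 called, the number was 37 with a pseudocount of 1, 30 with no filter, 34 with FPKM above 1 in at least 3 libraries, 2 with the replicate block, and 46 to 256 without 1 library. The number of members called, 0 with all libraries, was 1 with the pig as a replicate block (MYL3), 3 without pig 2, and 0 to 5 without 1 library, and 0 with MYL6 and MYL6B split. The block changed no call of another member, and among the list genes reported here it added MYH7B, TNNT1, TPM3, MYOZ2, ATP2A2, TPM1, MYH6, RGS5, KDR and MYOT. The slow share of FPKM differed between the muscles by 51.2 percentage points for MYL2 and 48.9 for MYL3, and by 35.5 to 74.4 and 34.5 to 68.7 without 1 library. The sign of each member's log2 fold change held in 136 of 136 settings. These settings reuse the same 6 libraries, and 16 of them are for MYL4, whose sign was largely fixed by its 0 in every LT library. The transcript ENSSSCT00000052945 of MYL1 ranged from -0.71 (without ST replicate 1) to 3.61 without 1 library. Among list genes the sign turned for MYH3 (-0.17 to 0.58 without 1 library, -0.086 without pig 2), PPP1CB (-0.12 to 0.85, and -0.33 without pig 2) and MYH14 (-0.051 to 0.32, and -0.033 after quantile normalization), and the calls of MYLK4, PECAM1 and CDH5 ended without a filter, without the trend, after quantile normalization and without pig 2, and that of MYBPC1 under the first 2 of these. By the estimated depth, counting error is largest for MYL4. The cause of these changes was not tested.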
